A study of Mus musculus with 12 samples.

Results

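Mitochondrial ribosomal proteins are encoded in the nucleus, made in the cytoplasm and imported, and together with the ribosomal RNAs of the mitochondrial genome they build the ribosome that translates the few mRNAs of that genome. Most symbols that begin with Mrpl stand for proteins of the large subunit, which joins amino acids, and most that begin with Mrps for proteins of the small subunit, which reads the mRNA. The symbols are not exact: the proteins of Mrps18a and Mrps30 sit in the large subunit, and Mrps36 is now known as a component of the oxoglutarate dehydrogenase complex, so the counts below are split by symbol. Some of these proteins have bacterial counterparts and others occur only in mitochondria. The genes were found as entries of the deposited expression table whose RefSeq ID maps to a mouse symbol of Mrpl or Mrps followed by a number, with an optional last letter. The rule found 77 genes, 48 with Mrpl and 29 with Mrps symbols, among 19708 entries. They lie on 17 chromosomes, and all 77 were above 0 in all 12 libraries.

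The study measured poly(A) RNA by sequencing of 3′ ends in mouse cells of the C57BL/6 strain. Mettl3 knockout (KO) and wild-type (WT) cells, as embryonic stem cells (ESCs) or as embryoid bodies (EBs), were collected 0, 4 and 8 h after actinomycin, which halts transcription, with 1 library for each of the 12 groups. ESCs grew without serum in LIF with the inhibitors CHIR99021 and PD0325901, and EBs were aggregates of ESCs cultured in serum for 8 to 21 days. Mettl3 is the catalytic subunit of the enzyme that methylates adenosines of mRNA (m6A), a mark that many mRNAs carry near the stop codon. Nothing in the labels says how many KO clones or cultures were used, or whether the 3 times of a condition share a culture. The spread behind every test is therefore the scatter of a condition's 3 libraries around a straight line over hours, pooled over the 4 conditions, and it does not cover variation between clones or cultures.

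Column totals ran from 3673850 in WT EBs at 8 h, the library that stands apart, to 11086700 in KO ESCs at 8 h. Taking the smallest common value of a library as 1 read, an inference from the values, the libraries held 208872 to 666799 reads, of which 1042 to 6542 fell on the 77 genes. Of 1409 olfactory, vomeronasal and similar genes that these cells should not use, 26.5% to 36.1% were above 0 in EB libraries and 6.67% to 9.51% in ESC libraries. Mettl3 itself had levels of 98.1, 65.4 and 41.8 in KO ESCs at 0, 4 and 8 h, against 251, 64.8 and 113 in WT ESCs. Its EB levels were 16.8, 40.7 and 83.9 in KO, against 175, 86.0 and 77.4 in WT. Mettl3 was lower in KO at 0 h in both cell types, and the KO level was above the WT level at 4 h in ESCs and at 8 h in EBs. The deleted part of the gene is not given, and reads from a 3′ end outside it would check nothing.

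Short stretches around the stop codons of 5 genes that lead the KO and WT comparison are shown because they hold GGACT, a common form of the sequence that Mettl3 methylates. They were read from GENCODE M21 transcripts on GRCm38, 5′ to 3′ on the gene's strand, with GGACT in capitals.
Mrpl43, minus strand of chr19:45005755-45005779: accaacaaacGGACTgccctccacg
Mrpl46, minus strand of chr7:78775470-78775494: gatttctcctGGACTctgatGGACT
Mrps34, plus strand of chr17:24895997-24896021: aacctggagaGGACTcgaatgcgcc
Mrpl14, plus strand of chr17:45698313-45698337: aaccctgtggGGACTcgaattaaaa
Mrpl44, plus strand of chr1:79781068-79781092: ggcggccctgGGACTactccaagcc
All 5 lie in the coding sequence, ahead of the stop codon. GGACT was searched on the mRNA strand in a window from 150 bases before the end of the stop codon to 50 bases after it. It occurred in 28 of 74 members with a full window (37.8%) and in 2943 of 12121 entries tested (24.3%). Mrps2, Mrps12, Mrpl16 and Mrps7, also among the members with the largest rise in KO ESCs, held no GGACT in this window. Methylation was not measured in these libraries. Coding sequences of the members were short, with a median length of 579 bases against 1428 bases over all entries tested, and so were their 3′ untranslated regions, with a median of 327 against 978 bases.

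The 77 genes together took a larger share of every KO library than of any WT library. Their summed level was 1.03%, 1.13% and 1.15% of the column total in KO ESCs at 0, 4 and 8 h, against 0.837%, 0.811% and 0.691% in WT ESCs. In EBs it was 0.946%, 1.01% and 0.984% in KO, against 0.745%, 0.639% and 0.499% in WT. The lowest KO library, EBs at 0 h, had an exact binomial 95% interval of 0.923% to 0.970%, and the highest WT library, ESCs at 0 h, one of 0.811% to 0.863%, both for counting error only. Mrpl genes made up 0.661% to 0.773% of KO libraries and 0.327% to 0.556% of WT libraries. Mrps genes made up 0.285% to 0.385% of KO libraries and 0.171% to 0.310% of WT libraries, so that for the Mrps genes the groups overlapped. The share is a description with no test, and in bulk RNA fewer cells of a type and less RNA per cell cannot be told apart.

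**Figure D1:**
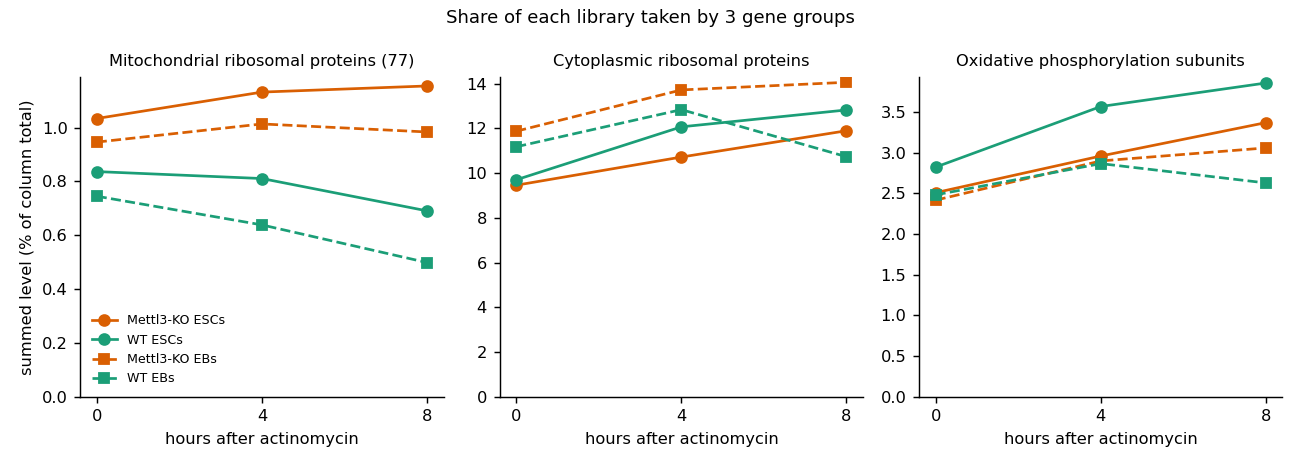
Summed level of 3 gene groups as a percent of the column total of each library (vertical axes, from 0) at 0, 4 and 8 h after actinomycin (horizontal axes), 1 point per library. For the 77 mitochondrial ribosomal protein genes the 6 KO points lie between 0.946% and 1.15% and the 6 WT points between 0.499% and 0.837%, while the KO and WT points of the other panels overlap.

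Cytoplasmic ribosomal proteins, which translate nuclear mRNAs, and subunits of oxidative phosphorylation, the chain that mitochondrial translation supplies, did not order the libraries this way. Cytoplasmic ribosomal proteins took 9.46%, 10.7% and 11.9% of KO ESC libraries at 0, 4 and 8 h, against 9.70%, 12.1% and 12.8% of WT ESC libraries. Their EB shares were 11.9%, 13.7% and 14.1% in KO, against 11.2%, 12.8% and 10.7% in WT. Nuclear-encoded oxidative phosphorylation subunits took 2.51%, 2.96% and 3.37% in KO ESCs, against 2.82%, 3.57% and 3.86% in WT ESCs. In ESCs both of these sets were lower in KO at every time, where the mitochondrial ribosomal genes were higher. In EBs the subunits took 2.42%, 2.90% and 3.06% in KO, against 2.48%, 2.87% and 2.63% in WT.

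The comparison of KO with WT ESCs asks which of the 77 genes differ when Mettl3 is lost in cells kept as stem cells. Averaged over 0, 4 and 8 h, 23 members rose and 1 fell in KO ESCs, 14 and 1 of the 48 Mrpl genes and 9 and 0 of the 29 Mrps genes (limma, adjusted p under 0.05). Over all 12704 entries tested, 10.9% rose and 3.27% fell. The median difference was 0.44 (log2) over the members and 0.18 over all entries. Median-ratio scaling moved that of all entries to 0.01, and the members' median lay 0.25 to 0.28 above that of all entries under the 3 other scalings, against 0.26 as deposited. All 3 KO libraries lay above all 3 WT libraries for 23 members, against 14.8% of all entries, and below them for 2, against 8.12%. The mean over the 3 times mixes the level at 0 h with levels after actinomycin. At 0 h alone the median difference in ESCs was 0.13 over the members and 0.03 over all entries.

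Mrpl43, a mitochondria-specific protein of the large subunit (NM_053164, minus strand of chromosome 19, 45005014 to 45006442 of GRCm38), stood at levels of 2165, 3089 and 2399 in KO ESCs at 0, 4 and 8 h, against 771, 235 and 141 in WT ESCs. The EB levels were 1401, 1506 and 1035 in KO, against 406, 193 and 92.9 in WT. The 6 KO libraries held the 6 highest levels, with no overlap in either cell type. Its difference was 3.05 ± 0.27 in ESCs (log2, standard error, limma adjusted p = 7.57e-06), and in EBs 2.68 ± 0.27 with an adjusted p of 1.84e-05.

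Mrpl46, another mitochondria-specific large subunit protein (NM_023331, minus strand of chromosome 7, 78775341 to 78783089), had 2047, 2038 and 2871 in KO ESCs, against 621, 458 and 444 in WT ESCs. In KO EBs the levels were 1075, 1339 and 1186, against 438, 174 and 76.7 in WT EBs. Groups did not overlap in either cell type, and the WT EB level was lower at each later time while the KO EB level was not. Its difference was 2.17 ± 0.25 in ESCs (limma adjusted p = 5.79e-05), and 2.66 ± 0.25 with an adjusted p of 1e-05 in EBs.

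Mrpl44, a large subunit protein with an RNase III-like fold, differed from these at 0 h. It had 813, 1370 and 669 in KO ESCs, against 864, 334 and 153 in WT ESCs. In EBs it had 752, 539 and 465 in KO, against 626, 122 and 14.4 in WT, the last of these less than 1 read, with an exact Poisson 95% interval of 0.182 to 92.4 for counting error only. KO and WT were close at 0 h in both cell types and apart at 4 and 8 h. Its mean difference was 1.33 ± 0.32 in ESCs (limma adjusted p = 0.0119), and 2.23 ± 0.32 with an adjusted p of 0.00037 in EBs.

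Mrpl51, a mitochondria-specific large subunit protein, had 3046, 4519 and 3683 in KO ESCs, against 2297, 1564 and 974 in WT ESCs. In EBs it had 2226, 2776 and 2171 in KO, against 1246, 498 and 180 in WT. The groups did not overlap, and the ratio of KO to WT was highest at 8 h in both cell types. Its differences were 1.28 ± 0.22 in ESCs and 2.27 ± 0.22 in EBs (limma adjusted p = 0.00131 and 1.15e-05). Mrpl12, which binds translation factors at the ribosome's stalk and also mitochondrial RNA polymerase, had 5447, 6337 and 8257 in KO ESCs, against 3430, 2779 and 2054 in WT ESCs. In EBs Mrpl12 had 2868, 2655 and 2559 in KO, against 2319, 1392 and 383 in WT. Its differences were 1.29 ± 0.20 in ESCs and 1.31 ± 0.20 in EBs (limma adjusted p = 0.000689 and 0.000578). A pair of other annotated genes lie on the opposite strand at its 3′ end, and whether counting used strand is not given.

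Mrpl16 and Mrpl14, both with bacterial counterparts, rose as well. Mrpl16 had 2269, 1531 and 2032 in KO ESCs, against 538, 619 and 473 in WT ESCs, and Mrpl14 had 1545, 2218 and 2467 in KO ESCs, against 602, 654 and 627 in WT ESCs. For both genes the WT ESC levels stayed close to each other over 8 h, and the gap was there at 0 h. Their differences in ESCs were 1.81 ± 0.27 and 1.69 ± 0.25 (limma adjusted p = 0.000587 and 0.000465). In EBs Mrpl16 had 1100, 1019 and 948 in KO, against 569, 368 and 97.1 in WT, a difference of 1.86 ± 0.27. Mrpl58, also called Ict1, a peptidyl-tRNA hydrolase built into the large subunit, rose by 1.23 ± 0.27 in ESCs and had a difference of 0.84 in EBs that did not pass.

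Among the Mrps genes Mrps2, which has a bacterial counterpart (NM_080452, plus strand of chromosome 2, 28465951 to 28471177), had 1610, 1986 and 1976 in KO ESCs, against 669, 254 and 52.3 in WT ESCs. In EBs it had 783, 654 and 821 in KO, against 437, 110 and 73.2 in WT. The KO levels were close to flat over 8 h and the WT levels were not, and the groups did not overlap. Its difference was 3.07 ± 0.30 in ESCs (limma adjusted p = 1.68e-05), and 2.22 ± 0.30 with an adjusted p of 0.000239 in EBs. No GGACT occurred in its window or in that of Mrps12, which says only that these letters are not in those windows.

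Mrps12, a protein of the decoding centre (NM_011885, minus strand of chromosome 7, 28739641 to 28741821), had 1786, 1695 and 2158 in KO ESCs, against 660, 452 and 170 in WT ESCs. In EBs it had 978, 1077 and 1041 in KO, against 395, 207 and 155 in WT. The groups did not overlap in either cell type. Its difference was 2.30 ± 0.26 in ESCs (limma adjusted p = 5.79e-05), and 2.10 ± 0.26 with an adjusted p of 0.000109 in EBs. Mrps34, a mitochondria-specific small subunit protein, had 3186, 2706 and 3115 in KO ESCs, against 1622, 671 and 457 in WT ESCs, a difference of 1.90 ± 0.23 (limma adjusted p = 9.79e-05). Part of Nme3 lies within 500 bases of the 3′ end of Mrps34 on the same strand, and how reads there were assigned is not given. Mrps7, with a bacterial counterpart, rose by 1.55 ± 0.33 in ESCs.

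**Figure D2:**
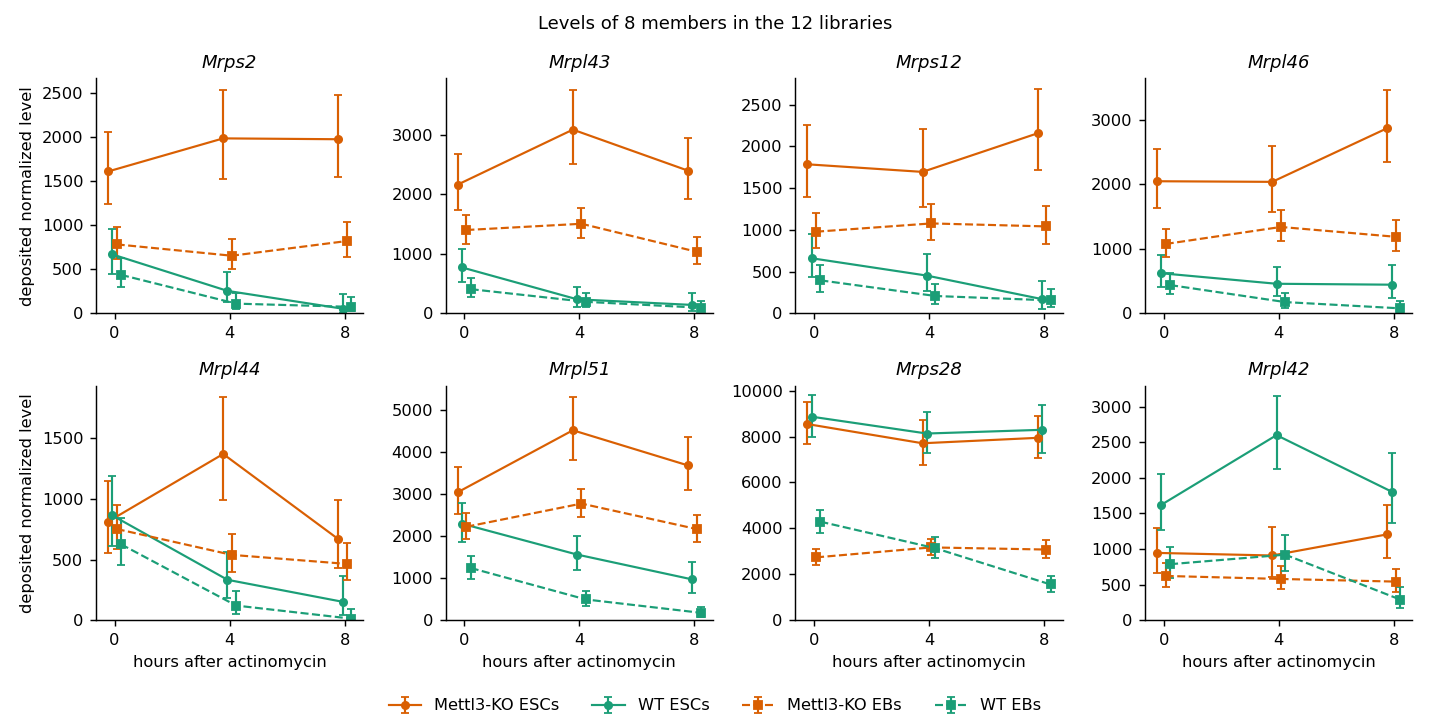
Deposited normalized level (vertical axes, from 0) of 8 members at 0, 4 and 8 h after actinomycin, 1 library per point, in KO ESCs, WT ESCs, KO EBs and WT EBs. Bars are exact Poisson 95% intervals on inferred reads. Mrps2, Mrpl43, Mrps12, Mrpl46 and Mrpl51 lie higher in KO at each time, Mrpl44 at 4 and 8 h, while Mrps28 in ESCs runs alike in KO (7707 to 8542) and WT (8131 to 8863), and Mrpl42 is lower in KO ESCs.

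Not all members rose in KO ESCs. Mrpl42, a large subunit protein, had 946, 910 and 1207 in KO ESCs, against 1622, 2598 and 1806 in WT ESCs, and was the only member that fell (by 0.95 ± 0.30 on the log2 scale, limma adjusted p = 0.0432). Its KO and WT ESC levels did not overlap, but the call was lost in 13 of 21 alternative settings. Mrps28, the member with the highest mean level, had 8542, 7707 and 7944 in KO ESCs, against 8863, 8131 and 8293 in WT ESCs. Its difference was -0.06 ± 0.16, which did not pass. The pluripotency markers summed to 45870 to 52643 in KO ESCs, against 80181 to 90614 in WT ESCs, with 0 of the 10 at 0 throughout. The list was split, with 3 of the 10 called higher and 3 lower in KO ESCs, and 6 of the differences positive. The 10 fibroblast markers summed to 6270 to 10537 in KO ESCs, against 4102 to 5538 in WT ESCs. S100a6 alone had 4471, 7003 and 8247 in KO ESCs, against 1247, 1752 and 1696 in WT ESCs. Of the 6 fibroblast markers tested, 1 was called higher and 1 lower, with 3 differences positive and 3 negative. Of the fibroblast markers Col3a1 was at 0 in all 3 KO ESC libraries and Lum in all 3 WT ESC libraries. The part of these markers in the member result was not tested. The count of 23 was 12 without the KO library of 8 h, or the WT library of 0 h or 8 h, and 13 without the KO library of 0 h.

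The same comparison in EBs asks what the loss of Mettl3 changes after differentiation was started. In KO EBs 29 members rose and 0 fell, 20 of the 48 Mrpl and 9 of the 29 Mrps genes, against 7.66% of all entries that rose and 1.56% that fell (limma, adjusted p under 0.05). The median difference was 0.79 over the members and 0.09 over all entries. With equal totals, median-ratio and ribosomal protein scaling the median of all entries was -0.16, -0.11 and -0.34, and the members' median lay 0.70 to 0.71 above it, against 0.70 as deposited. All 3 KO libraries lay above all 3 WT libraries for 25 members, against 9.58% of all entries, and below them for 0, against 7.4%. At an unadjusted p under 0.05, 46 members were higher and 0 lower, against 2100 and 545 of the 12704 entries. At 0 h alone the median difference in EBs was 0.16 over the members and -0.18 over all entries.

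Besides the genes above, the members that rose most in KO EBs were Mrpl15, Mrpl20, Mrps24, Mrpl41 and Mrpl27. Mrpl15, with a bacterial counterpart, had 2993, 2652 and 2149 in the KO EB libraries, against 2007, 810 and 199 in those of WT, a difference of 1.88 ± 0.22 (limma adjusted p = 5.93e-05). Mrpl20, also with a bacterial counterpart, had 1754, 2291 and 2043 in the KO EB libraries, against 1249, 687 and 267 in those of WT. Its difference was 1.70 ± 0.24 in EBs and 0.59 in ESCs, where it did not pass. Mrps24 had 1843, 1995 and 1723 in the KO EB libraries, against 1267, 685 and 240 in those of WT, a difference of 1.62 ± 0.21. For each of these genes the WT levels were lower at each later time, and the KO and WT libraries did not overlap. Mrpl41 and Mrpl27 rose by 1.56 ± 0.31 and 1.52 ± 0.38, calls that were lost in 6 and 9 of 21 alternative settings.

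Other things differed between the EB libraries. A list of 10 markers of endoderm and basement membrane had a summed level of 1562 to 1911 in KO EBs, against 17267 to 23017 in WT EBs, and 0 of the 10 were at 0 in all 3 libraries of either group, KO or WT. The sum of 10 pluripotency markers was 29708 to 37864 in KO EBs, against 10186 to 42939 in WT EBs, and 6 of the 10 were called higher in KO. A list of 10 fibroblast markers summed to 3234 to 3669 in KO EBs, against 6087 to 6818 in WT EBs, again with 0 of the 10 at 0 throughout. The part of this difference in cell make-up in the member result was not tested. The count of 29 was 13 without the KO library of 8 h, 14 without the KO library of 0 h or the WT library of 8 h, and 15 without the WT library of 0 h. It was 19 without the KO library of 4 h.

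Members that rose in ESCs were mostly members that rose in EBs. The 2 comparisons share no library, but both use the same spread of each gene, pooled over all 12 libraries. The 2 calls of a gene are therefore not independent. Those that rose in both numbered 19, which is 82.6% of the 23 in ESCs and 65.5% of the 29 in EBs. Over all entries 460 rose in both, or 3.62% of those tested, which is 33.3% of the 1381 that rose in ESCs and 47.3% of the 973 in EBs. Of these 19 members, 16 were higher in KO at each of the 3 times in both cell types. KO lay above WT in all 6 pairs for 26 members, against 9.44% of all entries. Across the 77 members the differences in the 2 cell types had a Pearson correlation of 0.752 and a Spearman correlation of 0.730, and across 12704 entries a Pearson correlation of 0.291. These are descriptions, since genes of 1 set of libraries are not independent. The median of mean levels was 755 over the members and 179 over all entries tested. The comparisons with all entries given here were not matched for level.

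**Figure D3:**
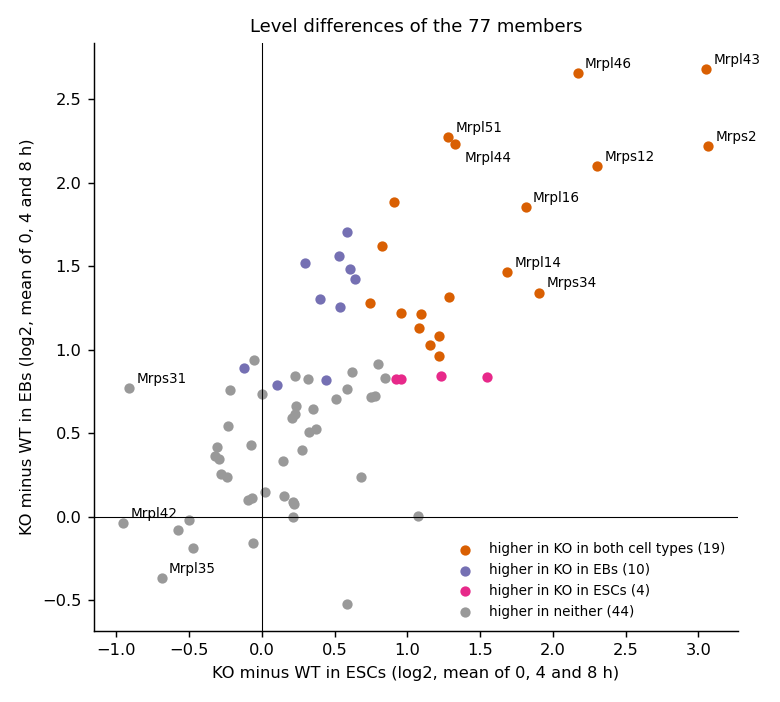
Difference of each of the 77 members between KO and WT (log2, mean of 0, 4 and 8 h) in ESCs (horizontal axis) and EBs (vertical axis), coloured by whether the member passed the limma test as higher in KO. The 19 members higher in both fill the upper right, 10 were higher in EBs and 4 in ESCs, and Mrpl42, called lower in ESCs, is among the other 44.

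The 11 Mrpl genes that rose in both were Mrpl12, Mrpl14, Mrpl15, Mrpl16, Mrpl17, Mrpl33, Mrpl43, Mrpl44, Mrpl46, Mrpl51 and Mrpl57, and the 8 Mrps genes were Mrps2, Mrps12, Mrps17, Mrps18a, Mrps24, Mrps26, Mrps34 and Mrps35. Of the 19, 16 rose in both cell types with columns brought to equal totals and 13 with median-ratio scaling or with scaling to cytoplasmic ribosomal proteins. With additive time terms 5 of the 19 rose in both (Mrpl16, Mrpl43, Mrpl46, Mrps2 and Mrps12), and 7 did with no variance trend. GGACT occurred in the stop codon window of 11 of the 19 (57.9%). It occurred in 15 of 32 members that rose in either cell type (46.9%), the 19 included, and in 13 of 42 that rose in neither (31.0%). Among the 19, the median differences with and without GGACT were 1.29 and 1.06 in ESCs, and 1.34 and 1.74 in EBs. These counts and medians cover members with a full window and are descriptions after the fact. No member's KO and WT difference was itself called different between EBs and ESCs (limma, 0 higher and 0 lower, against 1.5% and 1.35% of all entries). At an unadjusted p under 0.05, 13 members had a larger difference in EBs and 0 a smaller one, against 1024 and 1006 of the 12704 entries. The direction depended on the scaling, since the members' median for EBs minus ESCs was 0.26 as deposited, with 54 of 77 positive, and 0.06, 0.27 and -0.23 with equal totals, median-ratio and ribosomal protein scaling, with 40, 54 and 28 positive. The smallest adjusted p was that of Mrpl28, with 0.0826 for a difference of 1.01 ± 0.29.

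Promoters of 2 of these genes are shown, both with matches to short cores bound by transcription factors. Both run from 250 bases before to 50 bases after the start of the gene, from RefSeq on GRCm38.p6, 5′ to 3′ on the gene's strand. Capitals mark CCGGAAG, a core bound by ETS family factors, and GCCATCTT, the reverse complement of the YY1 core AAGATGGC.
Mrpl43, minus strand of chr19:45006393-45006692: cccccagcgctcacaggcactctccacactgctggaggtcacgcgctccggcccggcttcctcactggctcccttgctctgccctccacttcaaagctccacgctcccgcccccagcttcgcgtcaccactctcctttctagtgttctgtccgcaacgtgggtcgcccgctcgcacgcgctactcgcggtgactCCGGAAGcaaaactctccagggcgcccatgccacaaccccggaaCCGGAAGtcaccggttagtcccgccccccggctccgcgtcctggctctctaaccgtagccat
Mrps12, minus strand of chr7:28741772-28742071: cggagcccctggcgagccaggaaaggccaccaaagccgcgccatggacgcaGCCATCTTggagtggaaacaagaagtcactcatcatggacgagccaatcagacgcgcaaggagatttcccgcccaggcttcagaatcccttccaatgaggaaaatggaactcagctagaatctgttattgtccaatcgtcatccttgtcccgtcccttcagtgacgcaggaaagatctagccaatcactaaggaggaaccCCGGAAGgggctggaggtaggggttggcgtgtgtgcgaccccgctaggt
Searched exactly on both strands, CCGGAAG occurred in 25 of 74 promoters of 68 members (33.8%), in 16.2% of the promoters of entries tested and in 8.86% of all promoters in the table. AAGATGGC occurred in 12 of the 74 (16.2%), against 4.16% and 2.75%, and the NRF1 core GCATGCGC in 8 (10.8%), against 5.03% and 2.71%. No matches overlap in the 2 promoters shown. Among the members that rose in both cell types, the promoters of Mrpl12, Mrpl14, Mrpl16, Mrpl44, Mrpl46, Mrps2 and Mrps17 held none of these cores. A match is not a bound site.

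The size of the KO and WT difference depended on the time after actinomycin. In ESCs the members' median difference was 0.13 at 0 h, 0.43 at 4 h and 0.82 at 8 h (log2), and that of all entries was 0.03, 0.23 and 0.26. In EBs it was 0.16, 0.77 and 1.41 over the members and -0.18, 0.11 and 0.38 over all entries. Members more than 2-fold higher in KO numbered 8, 17 and 32 in ESCs, where 15.1%, 26% and 27.8% of all entries were. They numbered 4, 33 and 49 in EBs, where 7.05%, 16.1% and 28.3% of all entries were. At 0 h, before actinomycin had acted, the members' count over 2-fold was therefore below the background share in ESCs and near it in EBs, and at 8 h it was above it in both. These are single pairs of libraries with no test.

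Levels after actinomycin were also set as a percent of the 0 h level of the same condition. At 8 h the median member stood at 121% of its 0 h level in KO ESCs, against 71.5% in WT ESCs, where all entries had medians of 87.8% and 69.2%. It stood at 86.7% in KO EBs, against 29.7% in WT EBs, where all entries had medians of 78.1% and 47.8%. Members under 50% at 8 h numbered 6 in KO ESCs, 22 in WT ESCs, 6 in KO EBs and 67 in WT EBs. Of all entries, 23.3%, 35.6%, 22.5% and 52.0% were under 50% in these conditions, in the same order. At 4 h the members' medians were 114% in KO ESCs, 97.6% in WT ESCs, 102% in KO EBs and 59.9% in WT EBs. With equal totals, median-ratio and ribosomal protein scaling the members' median at 8 h in KO ESCs was 114%, 130% and 90.8%. The levels are relative to each library's scaling, which is not given, so the values are no half-lives. Relative to all entries the median member at 8 h was 33.3 percentage points higher in KO ESCs and 2.24 higher in WT ESCs. In EBs it was 8.61 higher in KO and 18.1 lower in WT, and the sign of each gap was kept under all 3 other scalings. These shares cover entries of at least 5 ppm at 0 h. With at least 20 ppm, the 8 h medians in WT EBs were 27.6% over members and 33.7% over all entries, and at 4 h 59.8% and 59.2%. In the other conditions the 8 h medians were then 121% against 88.4% (KO ESCs), 71.5% against 67.0% (WT ESCs) and 87.0% against 73.0% (KO EBs).

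**Figure D4:**
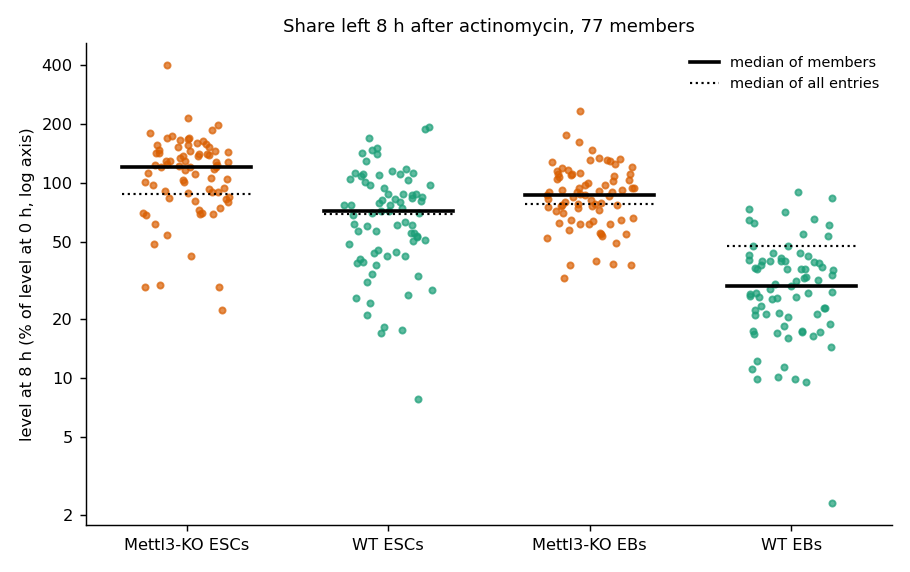
Level at 8 h as a percent of the level at 0 h (vertical axis, log scale) for each of the 77 members in KO ESCs, WT ESCs, KO EBs and WT EBs, with the median of members (solid) and of all entries (dotted). The member medians are 121%, 71.5%, 86.7% and 29.7%, and only in WT EBs is the member median below that of all entries.

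Single members differed widely in the share left. Mrpl44 stood at 82.3% in KO ESCs, against 17.7% in WT ESCs, and at 61.8% in KO EBs, against 2.30% in WT EBs, the lowest of all members there. Mrps2 stood at 123% in KO ESCs, against 7.83% in WT ESCs (95% interval for counting error 1.14% to 38.8%), and at 105% in KO EBs, against 16.8% in WT EBs. Mrpl43 stood at 111% in KO ESCs, against 18.2% in WT ESCs. For these 3 genes the WT share was below the KO share in both cell types. Mrpl1 and Mrps31 stood low in KO as well. Mrpl1, a protein of the large subunit's stalk at the exit of tRNA, had 29.4% in KO ESCs, 55.1% in WT ESCs, 38.2% in KO EBs and 9.53% in WT EBs. Mrps28 had 93.0% in KO ESCs, 93.6% in WT ESCs, 112% in KO EBs and 36.4% in WT EBs.

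As slopes over hours, averaged over the 4 conditions, 36 members fell and 0 rose, against 21.4% and 0.236% of all entries (limma, adjusted p under 0.05). The median slope was -0.08 per hour (log2) over the members and -0.05 over all entries. Mrpl44 had the steepest, at -0.26 ± 0.03 (adjusted p = 0.000183), followed by Mrpl1 at -0.22 ± 0.03, and by Mrps31, Mrpl32 and Mrpl47, each between -0.20 and -0.19. Within single conditions, 0 members fell in KO ESCs and 0 in KO EBs, against 0.0315% and 0% of all entries. At an unadjusted p under 0.05, 4 members fell in each, against 869 and 939 of the 12704 entries. In WT ESCs 7 fell, against 5.35% of all entries, namely Mrps2, Mrpl44, Mrpl43, Mrps18a, Mrps12, Mrps34 and Mrps24. In WT EBs 51 fell, against 26.7% of all entries, but 0 did without the library of 8 h, 18 without that of 0 h, and 6 under each of the 3 other scalings. The 7 calls of WT ESCs were 0 without the library of 0 h or of 8 h. Leaving out any 1 library of 0 h or 8 h brought the count for the mean slope to between 9, without KO EBs of 8 h, and 19, without WT EBs of 0 h.

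The test of the difference in slope asks whether levels declined faster in WT than in KO. In EBs 6 members had a higher, less falling slope in KO, against 1.19% of all entries (limma, adjusted p under 0.05). They were Mrpl44 (0.51 ± 0.10 per hour), Mrpl55 (0.41 ± 0.08), Mrpl15 (0.35 ± 0.07), Mrpl51 (0.34 ± 0.07), Mrpl12 (0.30 ± 0.06) and Mrps24 (0.28 ± 0.06), with adjusted p between 0.0347 and 0.0447. Mrpl55, a mitochondria-specific large subunit protein, had 454, 547 and 591 in the KO EB libraries, against 549, 259 and 67.2 in those of WT. The KO level was lowest at 0 h and the WT level highest. The difference in slope was positive for 75 of 77 members, with a median of 0.20 over the members and 0.08 over all entries. Under equal totals, median-ratio and ribosomal protein scaling it was positive for 55, 60 and 48 members, with medians of 0.08, 0.11 and 0.05, where all entries had medians of -0.04, -0.02 and -0.08. The count was 0 under each of the 3 other scalings, without the filter on low levels, without any 1 KO library and without WT EBs of 8 h. It was 1 without any 1 WT ESC library and 15 without WT EBs of 4 h.

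In ESCs 0 members passed the test of slopes, against 0.0394% of all entries that were higher and 0% that were lower (limma). At an unadjusted p under 0.05, 14 members were higher and 0 lower, against 1017 and 251 of the 12704 entries. The smallest adjusted p was that of Mrps2, 0.0742 for a slope difference of 0.47 ± 0.09 per hour, followed by Mrpl43 with 0.172 for 0.32 ± 0.08. The difference was positive for 61 of 77 members, with a median of 0.10 against 0.04 over all entries. No member passed the test of the slope difference between EBs and ESCs (limma, 0 of 12704 entries did). At an unadjusted p under 0.05, 9 members were higher and 0 lower for that difference, against 772 and 188 of all entries. With ribosomal protein scaling the members' median of that difference was -0.03, against 0.11 as deposited.

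The comparison of EBs with ESCs asks how these genes stand after differentiation. In KO, 43 members fell and 0 rose in EBs, against 23.2% and 0.929% of all entries. In WT, 57 fell and 0 rose, against 29.1% and 3.49% (limma, adjusted p under 0.05). Columns of EB libraries sum to less than those of ESC libraries, and the median over all entries was -0.61 in KO and -0.50 in WT. Relative to that median the members' median was lower by 0.25 in KO and by 0.63 in WT, and between 0.25 and 0.27 and between 0.65 and 0.66 lower under the 3 other scalings. With those scalings only 1 to 3 members fell in KO and 9 to 18 in WT.

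In KO the largest falls were those of Mrps36 (-1.46 ± 0.38), Mrps28 (-1.43 ± 0.16) and Mrps27 (-1.39 ± 0.35). Mrps28 had 2742, 3175 and 3083 in KO EBs, against 8542, 7707 and 7944 in KO ESCs, with no overlap. In WT the largest were those of Mrps25 (-1.87 ± 0.31), Mrpl28 (-1.82 ± 0.21), Mrps14 (-1.74 ± 0.25) and Mrpl50 (-1.74 ± 0.28). Mrpl28, with a bacterial counterpart, had 1514, 1260 and 646 in WT EBs, against 3770, 3858 and 3806 in WT ESCs, with no overlap. At 0 h alone the members' median difference was -0.67 in KO and -0.50 in WT, against -0.53 and -0.29 over all entries. Endoderm markers summed to 17267 to 23017 in WT EBs, against 4100 to 4612 in WT ESCs, and to 1562 to 1911 in KO EBs, against 3705 to 4862 in KO ESCs, and their part in the result was not tested. Leaving out KO EBs of 0 h or of 8 h left 1 call in KO, leaving out KO ESCs of 0 h or of 8 h left 9, and leaving out KO EBs or KO ESCs of 4 h left 26 or 24. Leaving out WT EBs of 0 h or of 8 h left 36 calls in WT.

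Other genes of mitochondrial translation were taken from lists, whose counts stand against 10.9% of all entries that rose and 3.27% that fell in KO ESCs, and 7.66% and 1.56% in KO EBs. Of 6 listed genes, Dap3, Ptcd3, Aurkaip1, Chchd1 and Gadd45gip1 encode mitochondrial ribosomal proteins with other symbols, and Oxa1l does not encode a ribosomal protein. Of these 6, 2 rose and 1 fell in KO ESCs and 2 rose and 0 fell in KO EBs. Their median difference was -0.46 in ESCs, with 4 of 6 negative, and 0.54 in EBs, against 0.18 and 0.09 over all entries. Gadd45gip1, a large subunit protein at the exit of the peptide tunnel, rose by 2.89 ± 0.26 in ESCs and 2.62 ± 0.26 in EBs, and Chchd1, a small subunit protein, by 1.02 ± 0.18 and 0.92 ± 0.18. Aurkaip1, another small subunit protein, fell by 0.88 in ESCs. Of 22 assembly and rRNA modification factors, 5 rose and 0 fell in ESCs and 6 rose and 0 fell in EBs, with medians of 0.56 and 0.61 against the same 0.18 and 0.09 over all entries. Mterf4, an assembly factor, rose by 4.04 ± 0.38 in ESCs and 1.78 ± 0.38 in EBs, and Mrm3, an rRNA methyltransferase, by 2.38 ± 0.41 and 2.44 ± 0.41.

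Larger sets stand beside these, with the same shares over all entries (10.9% higher and 3.27% lower in ESCs, 7.66% and 1.56% in EBs, with medians of 0.18 and 0.09). Of 86 entries of cytoplasmic ribosomal proteins, 4 rose and 2 fell in KO ESCs and 20 rose and 0 fell in KO EBs, with median differences of -0.12 and 0.37. Of 81 oxidative phosphorylation subunits tested, 1 rose and 9 fell in KO ESCs and 10 rose and 0 fell in KO EBs, with medians of -0.25 and 0.25. The EB median of the oxidative phosphorylation subunits was 0.02, 0.07 and -0.16 with equal totals, median-ratio and ribosomal protein scaling, and their ESC median was negative under each. For the cytoplasmic ribosomal proteins the EB median was 0.13 and 0.19 with equal totals and median-ratio scaling, and ribosomal protein scaling sets it near 0 by construction. Uqcrfs1, the iron-sulfur subunit of complex III, rose by 0.96 ± 0.21 in ESCs and 1.67 ± 0.21 in EBs, and Sdhb, the iron-sulfur subunit of complex II, fell by 1.28 ± 0.21 in ESCs. The lists and the members were not tested against each other.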

How the data were processed

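Poly(A) RNA was measured in 12 libraries, 1 for each of KO and WT ESCs and EBs at 0, 4 and 8 h after actinomycin, grouped by the sample titles. The values are a signal, the normalized level of each RefSeq transcript in the table the authors deposited, with no further scaling. The submitters' processing notes list the mm10 build with CASAVA 1.8.2, Bowtie and Bowtie2 2.1.0. Counting and scaling are not given in the sources used here. Fragmented RNA was selected on its poly(A) ends and copied in a strand-specific way, per the labels' protocols.

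Of 19746 entries, 19535 were named through a RefSeq gene table (GRCm38.p6), 98 through GENCODE M21, and 113 kept their ID. Dropping 38 identical duplicates left 19708. Limma 3.58.1 in R 4.3.3 was fitted on log2(level + 8.58), a scale that understates changes of low genes. The pseudocount equals 1 ppm of the mean column total. Entries whose mean level reached 42.9 (5 ppm) were tested, 12704 in all, with all 77 members among them. The fit estimated an intercept and a line over hours for each condition, 8 coefficients, with 4 residual degrees of freedom and a trended prior worth 11.1 more. Level differences are means over the 3 times, and p-values were adjusted by Benjamini-Hochberg over all entries tested, with a threshold of 0.05. Genes to name were drawn, per comparison, from up to 12 called members with the largest rise and 8 with the largest fall. For slopes the limits were 8 and 8. Also drawn on were the 3 of smallest p where fewer passed, and the 5 members with the highest and lowest mean levels. Not all members that met this rule are named in the text. Genes named outside this rule were chosen after their values were seen.

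Intervals take the smallest common value of a library as 1 read, and cover counting error only at 95%, since PCR copies were not told apart. On data simulated for KO and WT ESCs over 12704 genes, 25% of level changes of 1 (log2) and 73% of changes of 2 were recovered, and 15% of slope changes of 0.3 per hour. Members and lists were chosen with earlier results of these data known. Alternatives were other pseudocounts, filters, scalings, time terms and variance priors, and leaving out libraries. Slopes of single conditions, shares of column totals and the GGACT window were added after the data were seen. For 20 members another annotated gene lies within 500 bases of the 3′ end, and their reads are uncertain to that extent.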

Additional observations from a re-analysis of the deposited data

Results flagged for a closer look

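Mrps31, a mitochondria-specific small subunit protein, and Mrps36 had differences of opposite direction in the 2 cell types at all 3 times. Mrps31 had 654, 209 and 247 in KO EBs at 0, 4 and 8 h, against 439, 111 and 130 in WT EBs. In ESCs Mrps31 had 494, 269 and 111 in KO, against 975, 281 and 378 in WT. Its KO and WT difference was 1.68 larger in EBs than in ESCs on the log2 scale, which did not pass (limma adjusted p = 0.172). Mrps36, the member with the lowest mean level, had 68.6, 97.0 and 89.2 in the KO EB libraries, against 132, 155 and 93.9 in those of WT. In ESCs Mrps36 had 332, 249 and 180 in KO, against 217, 194 and 98.1 in WT. Its value was -1.11, which did not pass either (limma adjusted p = 0.336).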

How the results depend on the processing

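No called value turned its sign, but some medians over members did with ribosomal protein scaling: the KO and WT difference in EBs minus that in ESCs was -0.23 (0.26 as reported), its counterpart in slopes -0.03 (0.11) and the slope in KO ESCs -0.02 (0.03). With additive time terms and with no variance trend, members higher in KO numbered 9 and 10 in ESCs (23 as reported) and 12 and 12 in EBs (29). In EBs they were also 16 with ribosomal protein scaling and 5 without both EB libraries of 8 h. The 1 member lower in KO ESCs was 0 with a pseudocount of 0.25 ppm, no filter, additive terms or no trend. For EBs against ESCs in WT, 10, 18 and 9 members fell (57) with equal totals, median-ratio and ribosomal protein scaling, 1 rose under each (0), and 28 fell without the 8 h EB pair. In KO, 1, 1 and 3 fell (43) under those scalings, 3 with additive terms, 0 with no trend and 2 without the pair. For the mean slope, 13, 5 and 23 fell (36) under those scalings, 14 with no trend and 6 without the pair, and 1 and 3 rose with equal totals and median-ratio scaling. The 6 members with a higher slope in KO EBs were 0 with no filter, each scaling, no trend or without the pair. The median share left in WT EBs at 8 h (29.7%) was 67.1%, 63.9% and 69.9% under those scalings. The causes were not tested.

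Leaving out 1 library at a time, members higher in KO numbered 12 to 24 in ESCs and 13 to 29 in EBs, and lower ones 0 to 1 in ESCs. In EBs against ESCs 36 to 58 fell and 0 to 1 rose in WT, and 1 to 45 fell in KO. For the mean slope 9 to 37 fell, for slopes in EBs 0 to 15 were higher in KO, and for the difference between cell types 0 to 1 was higher. Without a 0 h or 8 h library, the level compared is that of 4 h. Among genes that the naming rule drew from the comparisons, 1079 alternative values kept their call, 244 lost it and 1 gained it. No paired analysis was possible because the labels carry no replicate numbers and each group holds 1 library. The fit with additive time terms compares libraries of the same hour. With 1042 reads on the members in WT EBs at 8 h, single low levels there are imprecise.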

Other observations

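A list of 20 genes held mitochondrial aminoacyl-tRNA synthetases and Qrsl1, which is not a synthetase. Of these 20, 2 rose and 2 fell in KO ESCs and 1 rose and 0 fell in KO EBs. Over all entries 10.9% rose and 3.27% fell in KO ESCs, and 7.66% and 1.56% in KO EBs. Ears2, the glutamyl enzyme, rose by 1.46 ± 0.37 in ESCs and 1.91 ± 0.37 in EBs, and Rars2, the arginyl enzyme, fell by 1.51 ± 0.41 in ESCs. Of 13 translation factors, 1 rose in each cell type, Taco1 in ESCs (1.60 ± 0.47) and Tsfm, the exchange factor of the elongation factor Tufm, in EBs (2.00 ± 0.26). Of 9 genes of mitochondrial DNA transcription and copying, the helicase Twnk rose in ESCs (1.28 ± 0.35) and EBs (1.43 ± 0.35), and 0 fell.

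In WT EBs Mrpl4 stood at 89.5% of the 0 h level after 8 h (95% interval for counting error 50.5% to 157%) and Mrpl19 at 83.1% (23.3% to 251%), the 2 highest shares of the 77 members there. The median was 29.7%, which lies within the interval of Mrpl19. Mrps33 stood at 402% in KO ESCs, the highest share in any condition, with a 95% interval for counting error of 167% to 1081%.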
